A study of Mus musculus with 4 samples.

Results

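Methionine and one-carbon metabolism was followed in mouse liver through 9 genes chosen by name: Mat1a, Mat2a, Bhmt, Cbs, Cth, Gnmt, Ahcy, Pemt and Shmt1. They are 9 of the 36161 gene names on the array, and they were read by 18 of its 55681 probes. Liver RNA came from microsomic (M) and control (C) mice. With M and C each split into females (MF and CF) and males (MM and CM) there were 4 groups, and each was read on 1 array. All groups shared the strain and the tissue, whole liver, and none carried a transgene or received a treatment. The strain is labelled C57BL/6J, whereas the study names C57BL/6N. The stage is labelled as embryonic day 20, whereas the methods of the study describe newborns. Microsomic animals were those with a gender-specific birth weight in the lowest decile of the colony, and control animals had a birth weight near the colony mean. The methods describe the controls as littermates of microsomic mice. Whether the RNA on an array came from a single animal or from several is not given in the sources used here. The comparisons were MF vs CF and MM vs CM, which address how liver transcription at birth differs with small body size within each gender.

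Methionine is activated to S-adenosylmethionine, the methyl donor of the cell, by methionine adenosyltransferases. Methyltransferases spend it and leave S-adenosylhomocysteine, which is split to homocysteine. Homocysteine is then remethylated to methionine with methyl groups from betaine or folate, or passed to cysteine by transsulfuration. The liver carries most of this traffic in the body, and in rodents the switch from the Mat2a to the Mat1a enzyme is a known feature of liver maturation.

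Each probe is a 60-base oligonucleotide. The sequences below are the probes of Gnmt and Pemt that are rich in C and T, the 2 Ahcy probes that read lowest in MF against CF, and the 2 Shmt1 probes, which gave different readings. They are printed 5′ to 3′, and capitals mark windows of 5 bases that hold only C and T with at least 3 C. The Gnmt probe lies at chr17:46862894-46863042 and 1 of the 3 Pemt probes at chr11:59787580-59787639. The Ahcy probes lie at chr2:154891321-154891380 and chr2:154894644-154894703, and the Shmt1 probes at chr11:60603099-60603158 and chr11:60620453-60620512. All are on the minus strand of the mm9 build that the array files use, and the Gnmt interval is longer than the probe. Exon and UTR positions were not analysed here. The lines give the gene, the first base of the probe in its transcript where a gene has more than 1 probe shown, and the probe.

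Gnmt: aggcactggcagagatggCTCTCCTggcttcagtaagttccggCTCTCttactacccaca
Pemt: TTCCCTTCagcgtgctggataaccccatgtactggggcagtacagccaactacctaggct
Ahcy from base 442: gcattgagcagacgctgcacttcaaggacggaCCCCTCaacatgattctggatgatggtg
Ahcy from base 184: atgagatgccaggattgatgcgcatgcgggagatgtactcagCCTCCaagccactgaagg
Shmt1 from base 1584: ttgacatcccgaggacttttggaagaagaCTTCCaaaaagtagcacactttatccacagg
Shmt1 from base 394: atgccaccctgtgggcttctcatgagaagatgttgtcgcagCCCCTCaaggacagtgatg

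Values are log2 of the processed signal of a probe divided by the 75th percentile of its array, here called log2 level, and a difference is the log2 level of the first group minus that of the second. The brightest probe stands for its gene, and the other probes of a named gene are given beside it. Levels of different probes are not comparable with each other. The methods of the study describe independent replicate experiments for each group. The files used here hold 1 array per group and so no replicate arrays, which limits the precision, and a comparison of 1 array with another has no test. The only measure of error is technical: over 280 probes printed at several spots, the SD between spots of the same probe was 0.36 for MF minus CF, 0.40 for MM minus CM, 0.43 for CM minus CF and 0.33 for MM minus MF. Every member probe sits at 1 spot. All 18 were well above background on all 4 arrays, and none was saturated (the brightest, of Bhmt, reached 62.2% of the saturation value).

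The arrays differed in ways that bear on these values. Between 56.1% and 65.3% of spots were well above background, fewer on both C arrays (56.1% and 57.7%) than on both M arrays (63.7% and 65.3%), and the 75th percentile of signal was 628 and 676 on C against 893 and 925 on M. M arrays were in another slide column than C arrays, so condition and column cannot be told apart. Female arrays were in another slide row than male arrays, so gender and row cannot be told apart either. The MF array held 916 spots flagged as non-uniform and 22 saturated spots, against 130 to 182 and 0 to 1 on the others, and no member probe was flagged on MF. All 9 hepatocyte markers were well above background on every array. Their summed level relative to the 75th percentile was 7269 in MF, 6916 in CF, 4476 in MM and 6652 in CM. Between MM and CM, 5 of the 9 were more than 1.5-fold lower and 1 higher (median difference -0.61), and 4 of 6 heart, 4 of 7 exocrine pancreas and 3 of 5 mesenchyme markers were also lower, with 1 heart and 1 pancreas marker higher. In MF vs CF, 7 of 8 granulocyte, 5 of 6 macrophage, 5 of 7 intestine and 3 of 7 exocrine pancreas markers were more than 1.5-fold higher, while 5 of 6 heart markers were lower, with a summed heart level of 111.3 in CF against 0.79 in MF and 2.06 in CM. The intestine marker Muc2 was not well above background on any array, and the intestine sums were 249.7 in MF, 134 in MM, 141.1 in CF and 123.9 in CM. Tff3 (log2 level 7.41 in MF and 7.05 in CF) weighs most in these sums and did not pass 1.5-fold. The median intestine difference in MF vs CF was 3.96, with Vil1 20.9-fold and Lgals4 11.5-fold higher in MF and 0 markers lower. Of 8 erythroid markers, 2 passed 1.5-fold upwards and 3 downwards in MF vs CF, and 2 were lower in MM vs CM. The granulocyte sum was 1926 in MF and from 929.6 to 1265 on the other arrays, the macrophage sum 187.2 in MF and from 65.89 to 79.85 elsewhere, and the erythroid sum from 1468 in MM to 2766 in CF. Over all genes, 19.9% were as much higher and 21.1% as much lower in MF vs CF, and 17.7% and 23.1% in MM vs CM. The part of these cell types in the member values was not tested. For the cell types of whole liver, fewer cells of a type and less RNA per cell cannot be told apart. Where the signal of the heart, intestine and exocrine pancreas markers came from was not tested.

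Of the 9 members, 2 were more than 1.5-fold higher (Gnmt and Pemt) and 2 more than 1.5-fold lower (Mat1a and Cth) in MF vs CF. Over all genes compared, 19.9% were as much higher and 21.1% as much lower, or 40.9% in either direction, and among genes well above background on every array, as all members were, 17.5% and 19.7%. In MM vs CM, 2 members were higher (Ahcy and Shmt1) and 1 was lower (Mat1a), against 17.7% and 23.1% of all genes, or 40.8% in either direction, and 15.6% and 19.4% of genes well above background on every array. The member counts were therefore near the background in both genders. The median member difference was 0.07 in MF vs CF, where that of all genes was -0.04, and -0.31 in MM vs CM, where that of all genes was 0.00. Mat1a was the only member more than 1.5-fold lower in both genders, as were 3.8% of all genes, and no member was higher in both (3.19% of genes). No member went past 1.5-fold in opposite directions, as 5.81% of genes did with MF higher and 4.04% with MF lower.

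The split between higher and lower members depended on how the arrays were scaled and how probes were combined. In MF vs CF, the 2 higher and 2 lower members became 3 and 2 with median centring, 0 and 4 with quantile normalization and 4 and 2 without scaling. For MM vs CM, the 2 higher and 1 lower became 0 and 1 with quantile normalization and 3 and 0 without scaling. Among all genes past 1.5-fold, the share that was higher went from 48.5% to 79.6% without scaling in MF vs CF. For MM vs CM it went from 43.4% to 61.0% with median centring and to 78.4% without scaling.

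limma, fitted to all 4 arrays with condition and gender as terms, asks for a difference between M and C that is common to both genders. With Benjamini-Hochberg adjustment it called 0 of 9 members and 0 of 19303 genes at an adjusted p under 0.05, and its smallest adjusted p was 0.964. At an unadjusted p under 0.05 it passed 1 member (Mat1a) and 4.42% of all genes, and at an unadjusted p under 0.01 with 1.5-fold, the threshold of the methods, 0 members and 0.844% of all genes. No gender-specific difference can be tested with these arrays.

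**Figure D1:**
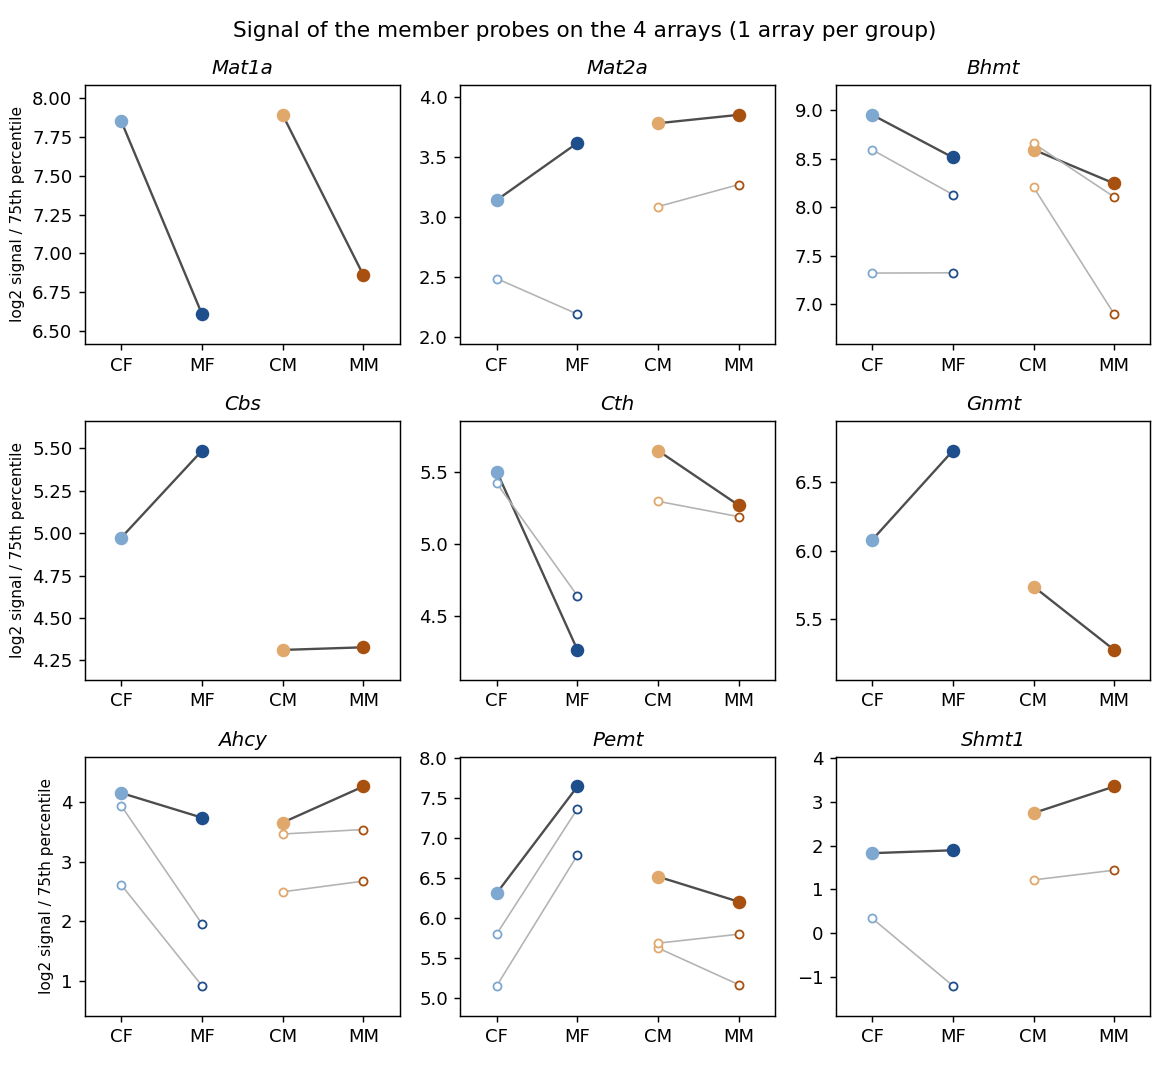
Log2 level (vertical axis, log2 of signal over the 75th percentile of the array, a separate range in each panel) of the 18 probes of the 9 genes on the CF, MF, CM and MM arrays. Filled points are the brightest probe of a gene, open points its other probes, and lines join C to M of the same gender. Mat1a was lower in M in both genders, the 3 Pemt probes stood highest in MF, and the probes of Ahcy and Shmt1 part from each other in MF.

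Mat1a makes the methionine adenosyltransferase of adult liver. Its probe read a log2 level of 7.85 in CF, 7.89 in CM, 6.61 in MF and 6.86 in MM. Both M arrays lay below both C arrays, and within M and within C the genders differed by less than the spread between spots (0.25 and 0.04). The difference was -1.24 in MF vs CF, or 2.36-fold lower, and -1.03 in MM vs CM, or 2.04-fold lower. For the common difference, limma gave -1.13 with a standard error of 0.41 and an adjusted p = 0.995. Under the reported setting and 11 alternatives, Mat1a was more than 1.5-fold lower in MF vs CF in all 12 (from -1.89 to -0.84). Mat1a has 1 probe, without a flag, so the alternatives in flags and probe choice could only repeat the reported value. Between MM and CM it was so in 10 of 12, and came to -0.40 with normexp background correction and quantile normalization together, and to -0.47 without scaling.

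The named genes nearest to Mat1a over the 4 arrays, by Euclidean distance of the centred log2 levels, were Rnpc3 (0.049), C4bp (0.076) and Catsper2 (0.097). C4bp encodes the complement regulator C4b-binding protein, a plasma protein made in liver. Its log2 level was 1.73 in MF, 1.95 in MM, 2.86 in CF and 2.99 in CM. It was picked for its closeness to Mat1a on these arrays, so being lower on both M arrays is no separate result. Rnpc3 (0.10 in MF, 0.38 in MM, 1.38 in CF and 1.44 in CM) and Catsper2 (-2.14, -1.81, -0.95 and -0.82) had the same order.

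Mat2a makes the methionine adenosyltransferase found outside liver and in fetal liver. The brightest of its 2 probes read 3.62 in MF, 3.14 in CF, 3.85 in MM and 3.78 in CM. CF was the lowest, CM and MM differed by less than the spread between spots, and neither comparison of M with C passed 1.5-fold (0.48 in MF vs CF and 0.07 in MM vs CM). The second probe gave -0.30 and 0.18. It carried a non-uniformity flag on CM, so it entered no count of genes past 1.5-fold, and its values are a description. Males were higher than females among controls on both probes (0.64 and 0.60). Nearest to Mat2a were a probe with no gene name (distance 0.016), Hook2 (0.041) and Reep3 (0.050). Mat2b, the regulatory subunit that binds the Mat2a product, was 1.85-fold lower in MF than CF and differed by 0.17 in MM vs CM.

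Gnmt encodes glycine N-methyltransferase, an abundant liver enzyme that uses up excess S-adenosylmethionine. Its single probe read 6.73 in MF, 6.08 in CF, 5.28 in MM and 5.74 in CM. MF was the highest array and MM the lowest. The difference was 0.65 in MF vs CF, or 1.57-fold higher, and -0.46 in MM vs CM. The female difference was just past 1.5-fold and turned with the scaling: it was -0.09 with quantile normalization, -0.41 with normexp background correction before it, and 1.05 without scaling.

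Pemt encodes phosphatidylethanolamine N-methyltransferase, which makes phosphatidylcholine in liver by 3 methylations of phosphatidylethanolamine. The brightest probe read 7.64 in MF, against 6.31 in CF, 6.20 in MM and 6.52 in CM. MF stood apart from the other arrays, whose levels lay close together. The same held for the probes that start at bases 430 and 733 of the transcript. MF was 2.52-, 2.95- and 3.1-fold higher than CF on the 3 probes, of which 2 overlap. The 3 probes gave -0.31, 0.11 and -0.46 in MM vs CM. Of the 12 settings, 11 kept Pemt more than 1.5-fold higher in MF vs CF, and quantile normalization gave 0.51. Some of the 11 kept the same probe and scaling and so repeated the reported value.

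Windows of C and T were counted because Gnmt and Pemt hold them. Of the 18 member probes, 16.7% held at least 4 such windows on the printed strand (those of Gnmt and Cbs and the Pemt probe shown above), as did 8.64% of all probes. Among all probes well above background on all arrays, 20.4% of those with 4 or more windows were over 1.5-fold higher in MF vs CF, against 15.7% of the others. The shares in MM vs CM were 10.5% and 16.6%. In MF vs CF the Pemt probe with 1 window gave 1.63, that with 2 gave 1.33 and that with 4 gave 1.56. The part of the windows in the member values was not tested.

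**Figure D2:**
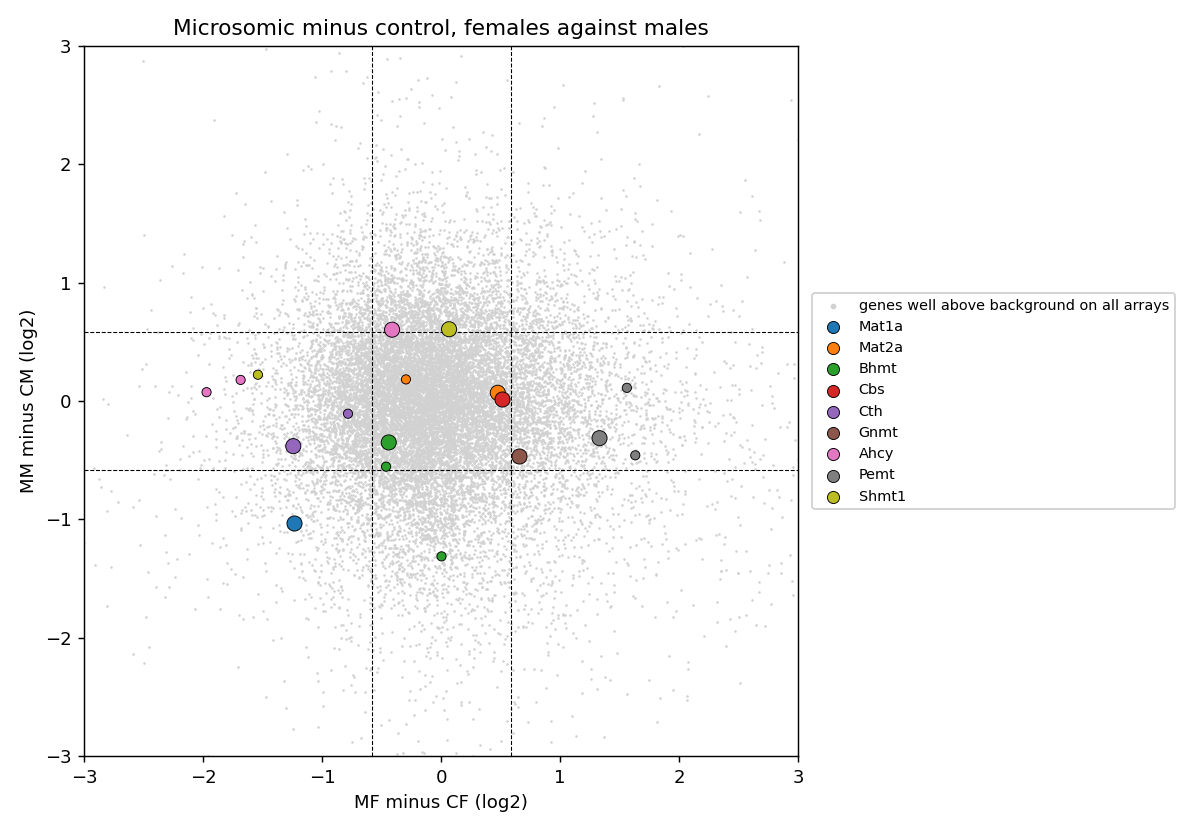
Difference MF minus CF (horizontal axis, log2) against MM minus CM (vertical axis, log2) for each probe of the 9 genes, large points marking the brightest probe of a gene. Grey points are all genes well above background on all 4 arrays (axes end at 3 on either side), and dashed lines mark 1.5-fold. Mat1a lies in the lower left, Pemt at the right near 0 on the vertical axis, and 2 Ahcy probes and 1 Shmt1 probe at the left near 0 on the vertical axis.

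Ahcy encodes the hydrolase that splits S-adenosylhomocysteine, the product of every methyltransferase above. Its 3 probes disagreed. The brightest, listed under a transcript that the RefSeq table did not match, read 3.73 in MF, 4.15 in CF, 4.25 in MM and 3.65 in CM. It was 1.52-fold higher in MM than CM (0.60) and differed by -0.41 in MF vs CF. The male difference was -0.04 with normexp background correction and quantile normalization. The probe from base 442, under the RefSeq transcript, read 1.96 in MF, 3.93 in CF, 3.53 in MM and 3.46 in CM. MF was 3.92-fold lower than CF on it, and 3.22-fold lower on the probe from base 184. Between MM and CM these probes gave 0.08 and 0.18. Represented by its brightest RefSeq probe, Ahcy would be counted as lower in MF vs CF and not as higher in MM vs CM.

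Bhmt encodes betaine-homocysteine methyltransferase, which remethylates homocysteine in liver with betaine. Its brightest probe read 8.51 in MF, 8.96 in CF, 8.25 in MM and 8.60 in CM. The differences, -0.44 and -0.35, did not pass 1.5-fold in either gender, and the male difference was no larger than the spread between spots. A neighbouring probe gave -0.46 and -0.55. The third probe, whose listed interval covers only part of its length, gave 0.00 in MF vs CF and -1.31 in MM vs CM. Between MM and CM the brightest probe came to 0.44 with normexp background correction and quantile normalization together, and to 0.21 without scaling. Bhmt2, the neighbouring paralogue of Bhmt that uses S-methylmethionine, was 1.88-fold higher in MM than CM and differed by 0.07 in MF vs CF.

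Shmt1 encodes the cytosolic serine hydroxymethyltransferase, which loads folate with a one-carbon unit from serine. The probe from base 1584 read 1.89 in MF, 1.83 in CF, 3.35 in MM and 2.75 in CM. Both male arrays lay above both female arrays. MM was 1.52-fold higher than CM, while MF and CF differed by 0.07. The male difference was just past 1.5-fold and passed it in 8 of 12 settings, some of which kept the same probe and scaling and so repeated it. It came to 0.53 with quantile normalization and to 0.05 with normexp background correction before it. The probe from base 394 read -1.20 in MF, 0.34 in CF, 1.44 in MM and 1.22 in CM. Here MF was 2.91-fold lower than CF, and MM and CM differed by 0.22. Males were higher than females on both probes, among C (0.92 and 0.88) and among M (1.46 and 2.64).

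**Figure D3:**
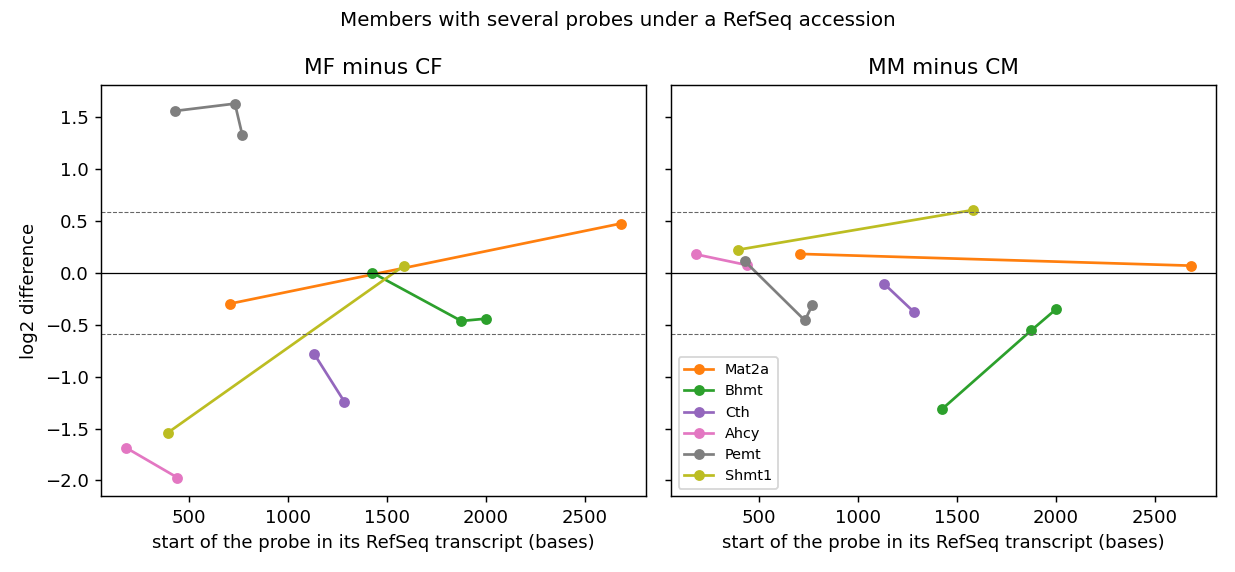
Difference (vertical axis, log2) of each RefSeq-listed probe of the 6 genes that have more than 1, against the first base of the probe in its transcript (horizontal axis, bases), for MF minus CF (left) and MM minus CM (right). Dashed lines mark 1.5-fold. In MF vs CF the 5′ probe lies below the 3′ probe for Shmt1 (-1.54 and 0.07) and Mat2a (-0.30 and 0.48), and above it for Ahcy (-1.69 and -1.97), Cth (-0.78 and -1.24), Bhmt (0.00 and -0.44) and Pemt (1.56 and 1.33).

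The distance along the transcript was compared over all genes, because the 2 probes of Shmt1 differed. Of the 6 members with several RefSeq probes, the 5′ probe gave the lower MF minus CF difference in 2 and the higher in 4. The 2 were the pairs furthest apart, Shmt1 (from bases 394 and 1584) and Mat2a (709 and 2681). The other 4 pairs lay closer together: Ahcy (184 and 442), Cth (1134 and 1286), Bhmt (1426 and 2001) and Pemt (430 and 770). The brightest Ahcy probe, not under a RefSeq accession, gave -0.41 and is not in this count. Where a RefSeq transcript had probes between 1000 and 2000 bases apart, the 5′ probe gave a lower MF minus CF difference than the 3′ probe in 60.8% of 658 transcripts, with a median of -0.17. The median in MM vs CM was -0.05. At 100 to 500 bases apart the medians were -0.07 and -0.04 over 693 transcripts, at 500 to 1000 bases -0.11 and -0.01 over 569, and beyond 2000 bases -0.09 and -0.13 over 628. Between the genders the medians were larger. For CM minus CF they were 0.18 at 1000 to 2000 bases and 0.32 beyond 2000. For MM minus MF they were 0.29 and 0.25. The part of the probe position in the member values, the gender differences of Shmt1 included, was not tested.

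Cbs encodes cystathionine beta-synthase, the entry of homocysteine into transsulfuration. Its probe read 5.49 in MF, 4.97 in CF, 4.33 in MM and 4.31 in CM. Females lay above males among both C and M, and the differences between M and C did not pass 1.5-fold (0.51 in MF vs CF and 0.02 in MM vs CM). Cbs came to -1.02 in MM vs CM with normexp background correction and quantile normalization.

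Cth encodes cystathionine gamma-lyase, which releases cysteine in the next step. The brightest probe read 4.26 in MF, 5.51 in CF, 5.27 in MM and 5.65 in CM. MF was the lowest array, and the other 3 lay close together. MF was 2.37-fold lower than CF on this probe and 1.72-fold lower on the second. Between MM and CM the 2 probes gave -0.38 and -0.11, which is within the spread between spots. Cth was more than 1.5-fold lower in MF vs CF in all 12 settings (from -1.64 to -0.78). Some of these kept the same probe and scaling and so repeated the reported value.

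**Figure D4:**
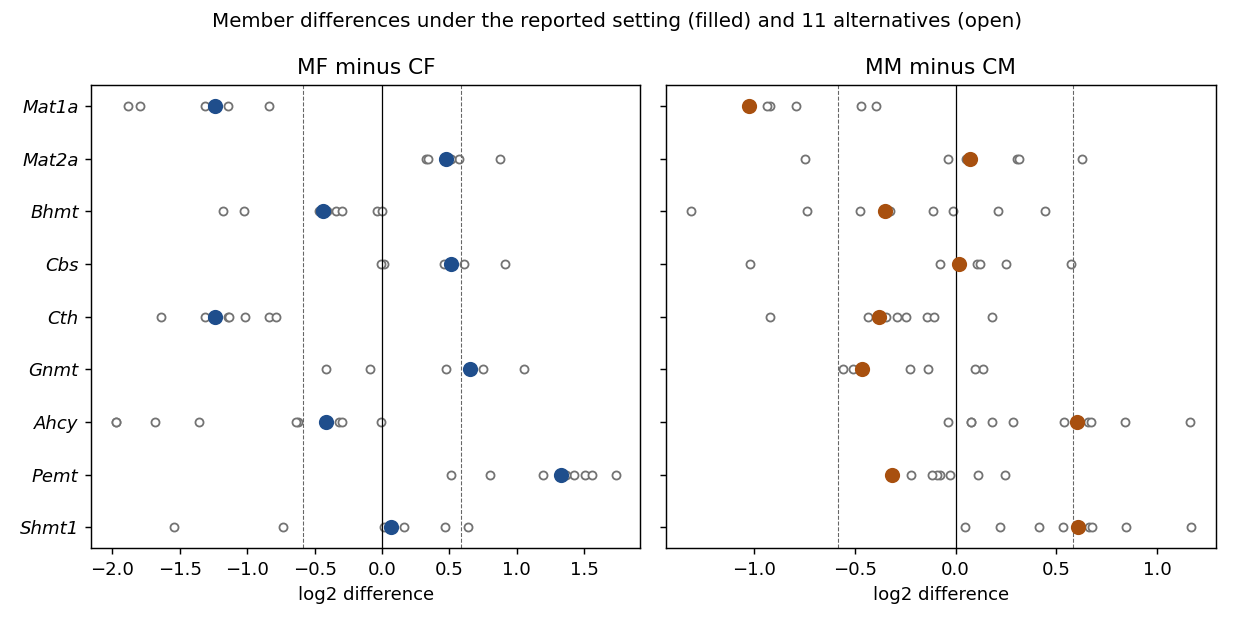
Difference (horizontal axis, log2) of each gene in MF vs CF (left) and MM vs CM (right) under the reported setting (filled) and 11 alternatives in scaling, background correction, flags, probe choice and trends (open). An alternative that left the probe and scaling of a gene unchanged repeats the filled point. Dashed lines mark 1.5-fold. Mat1a and Cth stay to the left of the lower line in MF vs CF, and most other genes lie on both sides of 0 or of a line.

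Between the genders, 2 members were more than 1.5-fold higher in CM than CF (Mat2a and Shmt1) and 1 was lower (Cbs), where 26.6% of all genes were higher and 19.7% lower, or 46.3% in either direction (21.6% and 17.5% of genes well above background on every array). In MM vs MF, 2 were higher (Cth and Shmt1) and 3 lower (Cbs, Gnmt and Pemt), where 28.9% of all genes were higher and 20.5% lower, or 49.5% in either direction (24.6% and 20.4% of genes well above background on every array). Shmt1 was higher in males and Cbs lower in males in both. For Cbs the differences were -0.66 among C and -1.16 among M. Gnmt (-0.34 and -1.45) and Pemt (0.21 and -1.44) were past 1.5-fold only between the M arrays, and whether the gender difference itself differs between M and C was not tested. These comparisons share their arrays with MF vs CF and MM vs CM, and gender cannot be told apart from slide row. With median centring the members past 1.5-fold in CM vs CF were 0 higher and 4 lower.

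The other genes of these pathways were taken from 8 lists with 77 genes, of which 76 had a usable probe and 74 were well above background on all arrays. In MF vs CF, 19 of 76 were higher past 1.5-fold and 14 were lower, where 19.9% and 21.1% of all genes were. The split was 16 and 18 with quantile normalization and 34 and 6 without scaling. In MM vs CM, 21 were higher and 6 lower, where 17.7% and 23.1% of all genes were. Here the split was 32 and 3 with median centring, 25 and 16 with normexp background correction and quantile normalization together, and 47 and 3 without scaling. The median difference was 0.00 and 0.22. limma called 0 of 74 at an adjusted p under 0.05 and passed 6 at an unadjusted p under 0.05, as it did 4.42% of all genes. Past 1.5-fold in both genders, 8 genes were higher (Tst, Gss, Inmt, Pipox, Slc46a1, Chka, Pcyt2 and Odc1) and 2 were lower (Nnmt and Tyms), where 3.19% and 3.8% of all genes were.

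**Figure D5:**
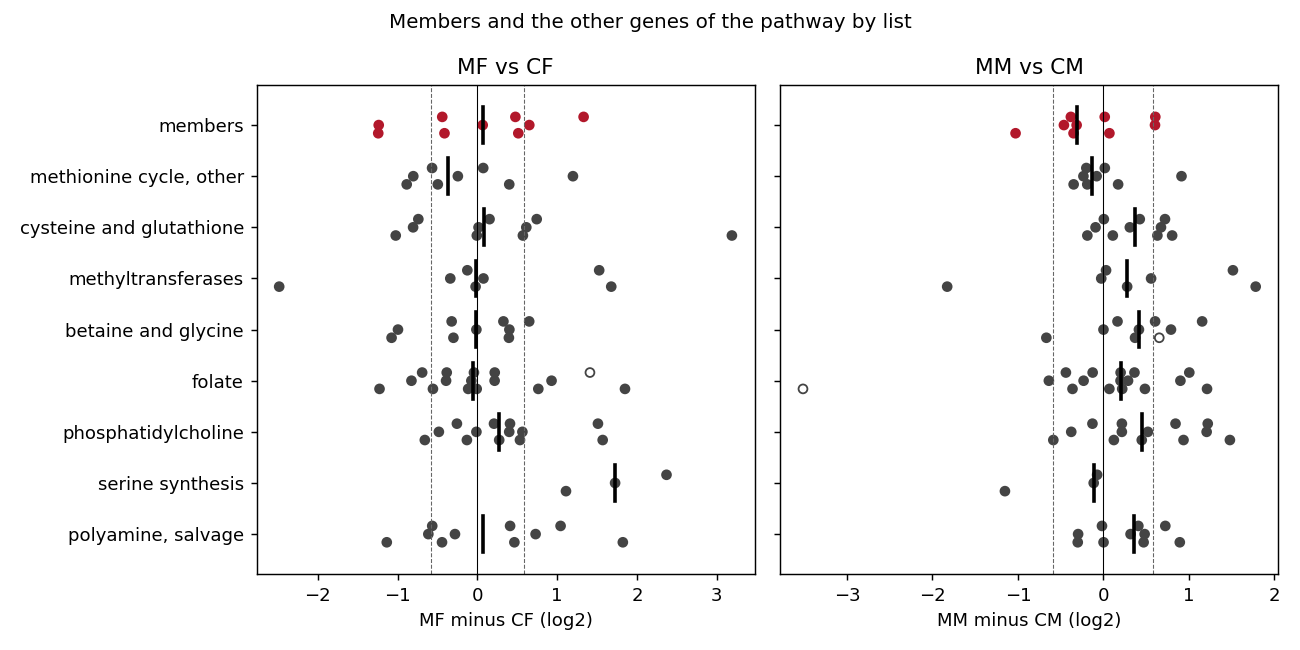
Difference (horizontal axis, log2) of the 9 members (red) and of the 76 other genes by list (dark), in MF vs CF (left) and MM vs CM (right). Vertical bars are the median of a list, dashed lines mark 1.5-fold, and open points are bounds where an array was not well above background. All 3 serine synthesis genes lie above the upper line in MF vs CF and none does in MM vs CM.

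The counts of each list stand beside the same shares of all genes, 19.9% higher and 21.1% lower in MF vs CF, and 17.7% and 23.1% in MM vs CM. Of 8 other genes of the methionine cycle, 1 was higher and 2 lower in MF vs CF, and 1 was higher in MM vs CM. These were Ahcyl2 (1.20 in MF vs CF), which encodes a relative of the Ahcy protein, Mat2b and Ahcyl1 (-0.89 and -0.80), and Bhmt2, all named after their values were seen. Mtr, the folate-dependent methionine synthase, is named for its place in the cycle and differed by -0.25 and -0.08.

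Among 10 genes of cysteine and glutathione metabolism, 3 were higher and 3 lower in MF vs CF, and 4 were higher and 0 lower in MM vs CM. Tst encodes a mitochondrial sulfurtransferase (rhodanese). Its brightest probe read 6.90 in MF, 3.71 in CF, 4.35 in MM and 3.63 in CM, or 9.12-fold higher in MF than CF and 1.65-fold higher in MM than CM. MF stood far above the other 3 arrays. The second Tst probe gave 2.30 and 1.47. For Tst, limma gave 1.95 with a standard error of 0.61 and an adjusted p = 0.995. Gss, glutathione synthetase, was higher by 0.74 and 0.80. Suox, sulfite oxidase, was lower in MF vs CF (-1.02) and differed by 0.43 in MM vs CM, on a probe that held 5 of the C and T windows.

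Of 7 other methyltransferases that use S-adenosylmethionine, 2 were higher and 1 lower in each gender. Nnmt, nicotinamide N-methyltransferase, read -3.68 in MF, -1.20 in CF, -3.80 in MM and -1.98 in CM. Both M arrays lay below both C arrays, with MF 5.60-fold lower than CF and MM 3.55-fold lower than CM. A second Nnmt probe, well above background on only 2 arrays, gave -1.50 in MF vs CF and -1.06 in MM vs CM. It read -5.90 in MM, where the lowest level well above background was -5.83. The limma value for Nnmt was -2.16 with a standard error of 0.43 and an adjusted p = 0.995. Inmt, indolethylamine N-methyltransferase, read 0.44 in MF, -1.08 in CF, 0.96 in MM and -0.82 in CM. Inmt thus stood higher on both M arrays, by 1.53 and 1.78, and its probe held 4 of the C and T windows. Tpmt, thiopurine methyltransferase, was 2.86-fold higher in MM than CM on its brightest probe and 0.71 higher on the second, while in MF vs CF they gave -0.34 and 0.15. Gamt, which makes creatine, was the second gene that was higher in MF vs CF (3.20-fold) and was named after its values were seen. It differed by 1.02-fold in MM vs CM.

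All 3 genes of serine synthesis were higher past 1.5-fold in MF vs CF, as were 19.9% of all genes, with a median difference of 1.73 where that of all genes was -0.04. In MM vs CM 0 were higher and 1 lower, with a median of -0.11. Serine is the main source of one-carbon units. Psat1, the phosphoserine aminotransferase, read 6.62 in MF, 4.25 in CF, 4.92 in MM and 5.04 in CM. Its second probe gave 1.0 in MF vs CF, against 2.37 on the brightest, and both gave -0.11 in MM vs CM. Phgdh, which catalyses the first step, read 2.99 in MF, 1.26 in CF, 1.83 in MM and 1.90 in CM. Its second probe gave 0.95 and -0.91. Psph, the last enzyme, gave 1.11 and -1.15, but 0.25 and 0.41 on its second probe. On the brightest probes MF was the highest array and CF the lowest for Psat1 and Phgdh. The 3 genes were also higher in CM than CF on these probes, with a median of 0.79. On the second Phgdh probe MM was the lowest (0.79, against 1.04 in CF). The second probes read 2.54 in CM and 2.23 in CF for Psat1, 1.70 and 1.04 for Phgdh, and 1.62 and 1.23 for Psph.

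Of 16 folate genes, 4 were higher and 3 lower in MF vs CF, and 3 were higher and 2 lower in MM vs CM. Mthfd2, a mitochondrial methylenetetrahydrofolate dehydrogenase, read 1.19 in MF, -0.66 in CF, -0.21 in MM and -0.43 in CM, or 3.60-fold higher in MF than CF. Slc46a1, the proton-coupled folate transporter, was higher in both genders (0.93 and 1.0), and its second probe, with 5 of the C and T windows, gave 0.42 and 0.92. Tyms, thymidylate synthase, was lower in both (-0.69 and -0.64) on a probe with 6 of these windows. Slc25a32, the mitochondrial folate carrier, was lower in MF vs CF (-1.23) and differed by -0.23 in MM vs CM. Ftcd, which returns the one-carbon unit of histidine to folate, was 2.32-fold higher in MM than CM and differed by -0.04 in MF vs CF.

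Of 9 genes of betaine and glycine breakdown, 1 was higher and 2 lower in MF vs CF, and 4 were higher and 1 lower in MM vs CM. Chdh, choline dehydrogenase, which begins the oxidation of choline to betaine for Bhmt, gave -0.67 in MM vs CM and -0.30 in MF vs CF on its brightest probe. Its other probes disagreed, with -1.3 and 0.48 in MM vs CM and 0.00 and -0.84 in MF vs CF. Pipox, a peroxisomal sarcosine oxidase, was higher in both (0.65 and 0.79). Dld, the shared dehydrogenase of the glycine cleavage system, gave -1.08 and 0.00, and a second probe, which carried an outlier flag, gave 0.02 and 0.41.

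Of 13 genes of phosphatidylcholine synthesis, the product that Pemt also makes, 2 were higher and 1 lower in MF vs CF, and 5 were higher and 1 lower in MM vs CM. Chka, a choline kinase, read 2.60 in MF, 1.09 in CF, 2.92 in MM and 1.44 in CM. Both M arrays lay above both C arrays, by 1.51 and 1.48, and 2 further probes of the same transcript gave 1.36 and 1.36, and 1.39 and 1.47. A probe for another Chka transcript gave 0.17 and 0.21. Pcyt2, of the ethanolamine branch, was higher by 1.57 and 0.94. The limma value for Chka was 1.5 with a standard error of 0.41 and an adjusted p = 0.995. Etnk1, an ethanolamine kinase, was 2.33-fold higher in MM than CM and differed by 0.27 in MF vs CF. Ptdss2, a phosphatidylserine synthase, was lower in MM vs CM (-0.59) and differed by -0.48 in MF vs CF, on a probe with 4 of the C and T windows.

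Of 10 genes of polyamine synthesis and methionine salvage with a probe, 3 were higher and 2 lower in MF vs CF, and 2 were higher and 0 lower in MM vs CM. Odc1, ornithine decarboxylase, was higher by 1.04 and 0.72 on its brightest probe, and its other probes gave from -0.53 to 0.56 in MF vs CF and from 0.20 to 1.31 in MM vs CM. Sms, spermine synthase, gave 1.82 in MF vs CF on its brightest probe, which held 7 of the C and T windows, and 0.31 and -0.59 on its other probes. In MM vs CM the 3 Sms probes gave 0.00, -0.19 and 0.00. Apip, of the salvage of methylthioadenosine to methionine, gave -1.14 in MF vs CF and -0.30 in MM vs CM, and its second probe gave -0.37 and 0.10.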

How the data were processed

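The authors labelled liver total RNA with Cy3 and hybridized it to Agilent 1-colour mouse arrays. The methods describe independent replicate experiments for each group, whereas the files used here hold 1 array per group, so no test between 2 arrays is possible. Per the file headers, the arrays were read with Agilent Feature Extraction 10.7.3.1 on a grid of the mm9 build. The deposited processed signal is a linear intensity, with a fitted background surface subtracted and a multiplicative trend removed. The authors did not normalize it between arrays in these files, and the deposited series table equals it at all 62976 spots.

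From these values, log2 of the processed signal minus that of the 75th percentile over 59305 non-control spots was computed. Spots that were flagged as non-uniform or as a population outlier on an array (1754) were left out of gene values, counts and fits, and member or named-gene probes with such a spot are shown as a description only. Spots of a probe were averaged, and a gene took its brightest probe. A gene was called past 1.5-fold if at least 1 array of the pair was well above background, and a side not well above background gave a bound. limma 3.58.1 in R 4.3.3 was fitted additively for condition and gender (1 residual degree of freedom) over the 19303 genes that were well above background on every array, with Benjamini-Hochberg adjustment, and was tested on simulated data. The spread behind its p-values is the disagreement between MF minus CF and MM minus CM, moderated over all genes. Gender-specific differences and technical error both enter that spread and cannot be told apart. Symbols of all 9 members, and 17 of 18 probe accessions, matched the RefSeq table.

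The members and lists were chosen with earlier results of these data known. Of the lists, genes past 1.5-fold the same way in both genders and the 5 largest measured differences per direction and gender were named (24 genes), and the 3 genes nearest to Mat1a and Mat2a. Array names were kept as deposited. Alternatives covered scaling, background correction, flags, probe choice, GC content, position on the array, fold and filter.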

Additional observations from a re-analysis of the deposited data

Results flagged for a closer look

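In 3 genes of the pathway lists, microsomic and control arrays differed past 1.5-fold in opposite directions in females and males, and the difference between the genders was not tested. Over all genes, 5.81% did so with MF higher than CF and 4.04% with MF lower. Psph, the last enzyme of serine synthesis, gave 1.11 in MF vs CF and -1.15 in MM vs CM, and its second probe 0.25 and 0.41. Aldh1l2, a mitochondrial folate dehydrogenase, gave at least 1.41 and at most -3.51, since it was well above background on only 1 array of each pair. Amd2, an S-adenosylmethionine decarboxylase with a near-identical copy (Amd1) that its probes may not tell apart, gave -0.62 and 0.89. Its other probes gave -0.63 and 0.11, and 0.27 and 0.70.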

How the results depend on the processing

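No paired analysis was possible because each group holds 1 array, and no array could be left out for the same reason. Of 198 member differences under alternatives, 147 moved by less than the spread between spots and 48 moved further. The 147 include alternatives in flags and probe choice that left the probe of a gene unchanged and so could not move its value. They are therefore no measure of robustness. Of those called past 1.5-fold, 3 changed sign: Gnmt in MF vs CF (-0.0865 with quantile normalization and -0.414 with normexp and quantile normalization) and Ahcy in MM vs CM (-0.0369 with the latter). Counts of members past 1.5-fold went from 3 to 1 in MM vs CM with quantile normalization and at 2-fold, from 3 to 5 in CM vs CF with normexp and quantile normalization and to 0 at 2-fold, and from 5 to 8 in MM vs MF with quantile normalization. Counts of pathway genes went from 33 to 18 at 2-fold in MF vs CF. In MM vs CM they went from 27 to 41 with normexp and quantile normalization, to 50 without scaling and to 11 at 2-fold. limma called 0 members in all 13 settings and 0 pathway genes, except 3 at an unadjusted p under 0.01 with 1.5-fold. The causes were not tested. Without scaling, the median difference of genes well above background on all arrays went from -0.08 to 0.32 in MF vs CF and from -0.03 to 0.53 in MM vs CM, and median centring took the latter to 0.21. The 3 alternatives in the choice of RefSeq probe were chosen after seeing the data.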
